A study of Mus musculus with 35 samples.

Results

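Matrix metalloproteinases (MMPs) and their tissue inhibitors (TIMPs) were followed as a family of 9 genes, Mmp8, Mmp9, Mmp12, Mmp13, Mmp14, Mmp19, Timp1, Timp2 and Timp3, chosen by symbol from the 47069 gene identifiers measured by RNA-seq. Bone marrow-derived macrophages (BMDMs) of C57BL/6 mice were grown from femur and tibia marrow with L929 conditioned medium. They were either wild type (WT) or carried the genotype label AMPKα1-/-, a loss of the AMP-activated kinase subunit that Prkaa1 encodes. Cells of each genotype received DMSO vehicle, the synthetic glucocorticoid dexamethasone (Dex, 100 nM), the bacterial cell wall component lipopolysaccharide (LPS, 100 ng/ml), LPS + Dex, damage-associated molecular patterns (DAMPs, 1 µg/ml) or DAMPs + Dex for 24 h. The 35 libraries, 17 WT and 18 AMPKα1-/-, formed 12 groups of 3, except WT LPS with 2 libraries (replicates 2 and 3).

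Levels were read as FPKM, sequenced fragments scaled by gene length and by the size of the library, which can be compared between genes because length is taken out. The libraries held an estimated 15837203 to 31955298 fragments each. Differences were taken on the log2(FPKM + 1) scale, which understates the change of low genes, and a gene was called when its limma test, adjusted over the 11354 genes tested, fell below 0.05. A gene was tested when its mean over the 35 libraries was at least 1 FPKM. Timp3 did not reach that level and was described only, so 8 of the 9 genes were tested. In bulk RNA, fewer cells of a type and less RNA per cell cannot be told apart.

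MMPs are zinc-dependent endopeptidases that cut extracellular matrix and also shed or process cytokines, chemokines and surface proteins. Most are made as inactive precursors and are opened by other proteases. Macrophages release several of them, and TIMPs block the active enzymes by binding the catalytic site. Many MMP promoters carry sites for the AP-1 transcription factor near the start of transcription, and glucocorticoids are known to restrain AP-1-dependent transcription.

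Promoter sequence is given as a description. The 2 windows printed below belong to Mmp13 and Mmp12, the tested members that fell furthest on the log2 scale when Dex was added to LPS. They were picked with that result known and because they hold a match. The AP-1 letters TGANTCA (N is any base; they read the same on both strands) were searched in the 250 bases before each transcription start of the RefSeq annotation (GRCm38.p6). The table held 8 windows for 7 members, with none for Mmp9 or Mmp19. The letters were found in 2 of those 8 windows and in 6.75% of all 32851 windows. Timp1 and Mmp14, which were also called lower when Dex was added to LPS, had none in theirs. The 60 bases before the start are printed 5′ to 3′ on the plus strand, with the match in capitals. The Mmp13 window, chr9:7272454-7272513, holds it at -35 to -29 from the start, and the Mmp12 window, chr9:7347314-7347373, at -44 to -38. The second Mmp12 window, which ends upstream of this one at another start, held no match in its 250 bases.
Mmp13: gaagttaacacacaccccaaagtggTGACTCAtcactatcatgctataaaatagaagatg
Mmp12: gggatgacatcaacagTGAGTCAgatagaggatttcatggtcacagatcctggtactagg
A match of letters is a description and shows no binding. Its part in the changes with Dex was not tested.

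Mmp13 (chr9:7272514-7283331), Mmp12 (chr9:7344381-7369499) and Mmp8 (chr9:7558456-7568485) lie in the MMP gene cluster of chromosome 9 on the plus strand, in GENCODE M21 on GRCm38. Mmp9 is on chromosome 2, Mmp14 on 14, Mmp19 and Timp3 on 10, Timp1 on X and Timp2 on 11. None of the 9 shares chromosome 15 with Prkaa1. Each FPKM is a value for a whole gene, so it does not separate transcripts from different starts.

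Checks of the labels came before the comparisons. Prkaa1 did not separate the libraries labelled AMPKα1-/- from WT. It stood at 15.9, 11.8 and 15.3 FPKM in WT vehicle libraries and at 14.8, 16.5 and 15.4 FPKM in AMPKα1-/- vehicle libraries. The genotypes overlapped in all 6 treatments, with a lower mean in AMPKα1-/- under Dex (18.6 against 22.8 FPKM), LPS (10.2 against 12.9) and LPS + Dex (11.7 against 14.3). The mean was higher in AMPKα1-/- with vehicle (15.6 against 14.3 FPKM), DAMPs (14.3 against 13.8) and DAMPs + Dex (21.9 against 17.7). The allele is not given in the sources used here, and an FPKM summed over the gene cannot show the loss of part of it. The genotype below is therefore that of the label. Known target genes were used to check the treatments. The glucocorticoid target Fkbp5 rose from 1.91 ± 0.31 FPKM in WT vehicle to 341 ± 17.6 under Dex (SD, n = 3 each), with an adjusted p of 4.58e-22 by limma. The cytokine gene Il1b stood at 4.96 ± 1.04 FPKM (SD, n = 3) in WT vehicle and at 15292 ± 1924 (SD, n = 2) under LPS, a rise of 11.33 ± 0.67 (log2, SE; adjusted p = 3.72e-14). Of the 10 check genes, none was called with DAMPs in WT and 1 in AMPKα1-/-. Macrophage markers were present throughout. Adgre1 ranged from 474 to 2751 FPKM and Csf1r from 197 to 684 FPKM over the 35 libraries, and the most abundant marker was Lyz2 with a mean of 24097 FPKM.

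Across the family, LPS lowered some members and raised others. With LPS against vehicle in WT cells, 3 of the 8 tested members rose (Mmp13, Mmp14, Timp1) and 4 fell (Mmp8, Mmp12, Mmp19, Timp2), where 19.9% of all genes tested rose and 35.8% fell. In AMPKα1-/- cells 4 rose, the same 3 and Mmp9, and the same 4 fell, against 20.2% and 44.1% of all genes. The share of called genes that rose in that comparison depended on scaling, from 35.7% to 46.3% in WT and from 31.4% to 49.0% in AMPKα1-/- once libraries were centred on one median. The median gene moved by -0.19 in WT and -0.30 in AMPKα1-/- (log2) without centring. The members called in these 2 comparisons kept their call and direction under centring and under quantile normalization.

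With LPS + Dex against LPS, 2 members rose (Mmp19, Timp2) and 4 fell (Mmp12, Mmp13, Mmp14, Timp1) in each genotype. The background was 16.6% higher and 17.5% lower in WT and 19.3% higher and 18.4% lower in AMPKα1-/-. With Dex against vehicle, 3 members rose (Mmp8, Mmp19, Timp2) and 4 fell (Mmp9, Mmp12, Mmp13, Mmp14) in each genotype, against 15.9% and 14.9% of all genes in WT and 11.9% and 16% in AMPKα1-/-. In AMPKα1-/- the share of called genes that rose with Dex was 42.8%, and 53.0% after quantile normalization. Each of these comparisons takes its control libraries from LPS against vehicle, so a likeness or contrast with that comparison is no separate result. DAMPs changed 1 member, Mmp14, in each genotype, where 2.01% of all genes were called in WT and 4.13% in AMPKα1-/-.

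**Figure D1:**
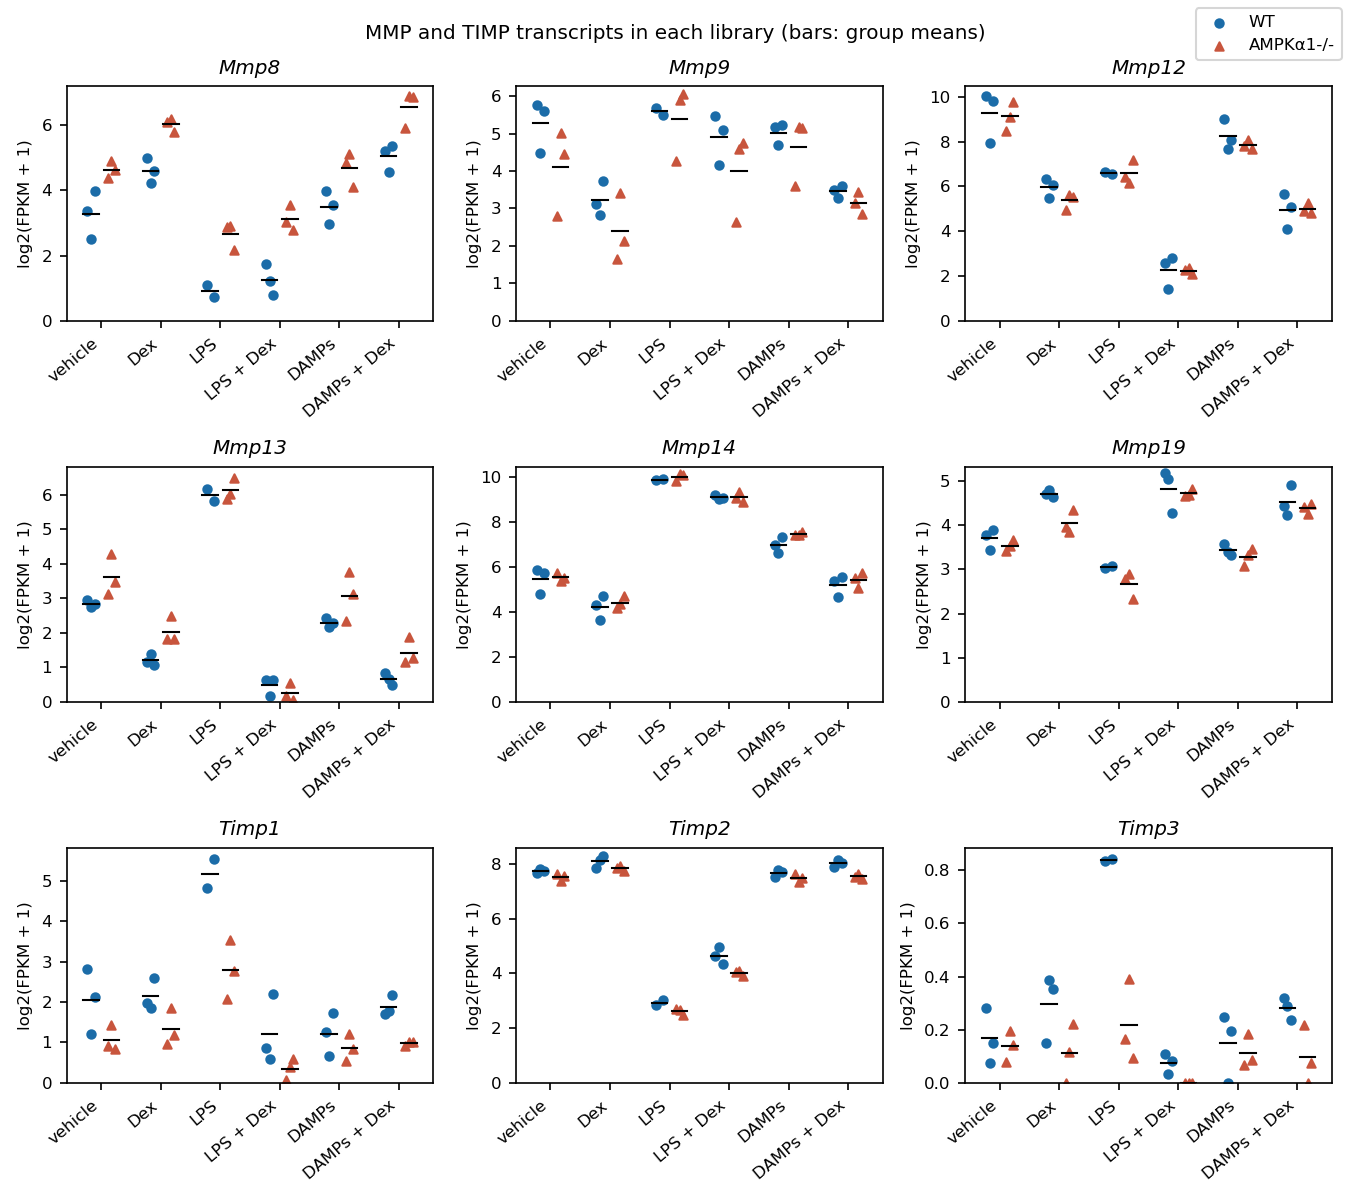
Level of each of the 9 genes in every library, as log2(FPKM + 1), by treatment on the horizontal axis, with WT as circles and AMPKα1-/- as triangles and bars at the group means (n = 3, or 2 for WT LPS). Mmp14 is highest under LPS, Mmp13 is near 0 under LPS + Dex, Timp2 is lowest under LPS, and Mmp8 is higher in AMPKα1-/- than in WT libraries in all 6 treatments.

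**Figure D2:**
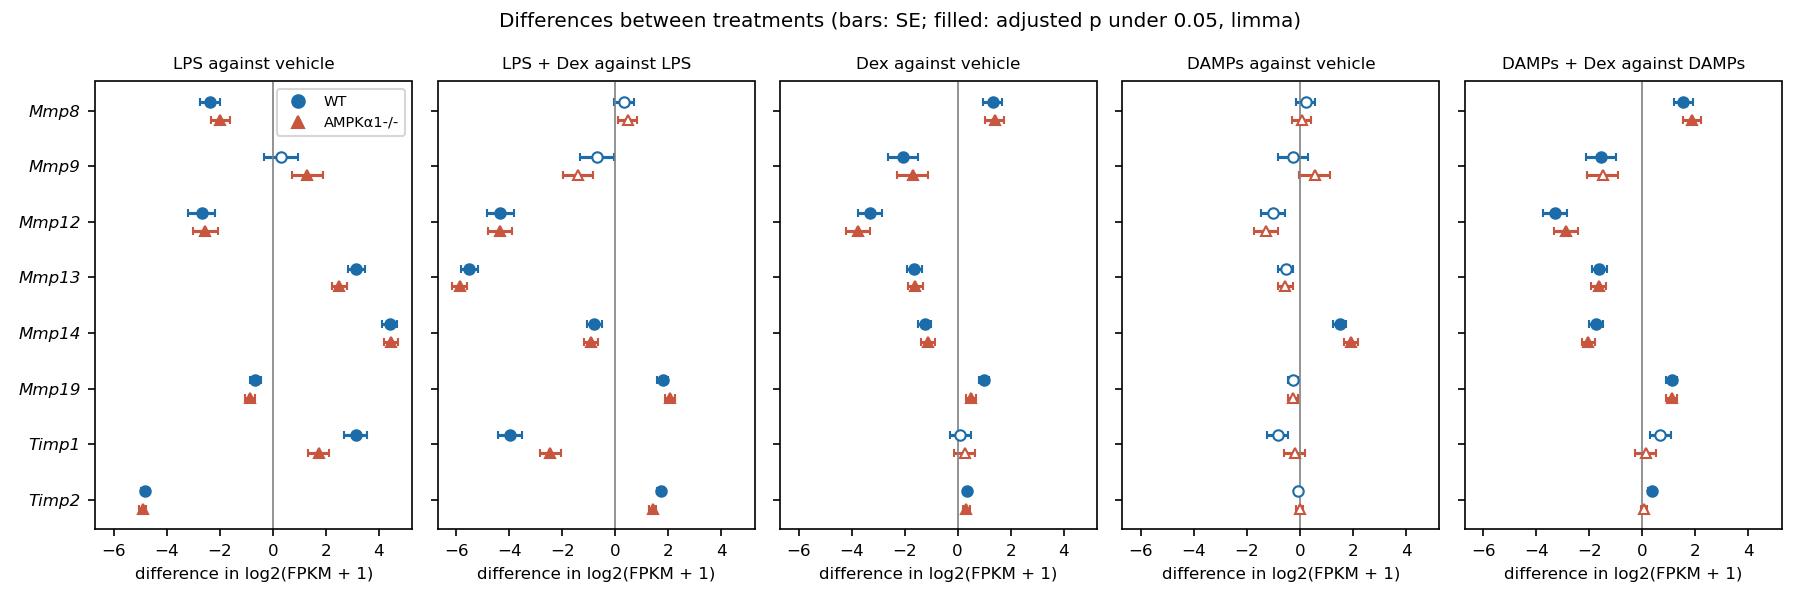
Difference in log2(FPKM + 1) between treatments for the 8 tested genes, one panel for each of 5 comparisons, with WT as circles, AMPKα1-/- as triangles, SE as bars and filled symbols where the adjusted p was under 0.05. Mmp14 rises and Timp2 falls with LPS, Mmp13 falls furthest when Dex is added to LPS, and Mmp14 alone is filled for DAMPs.

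Mmp13, a collagenase that cuts fibrillar collagen, showed the widest swing between LPS and LPS + Dex. In WT cells it stood at 6.77, 5.65 and 6.08 FPKM with vehicle, 70.6 and 55.1 FPKM with LPS, and 0.557, 0.122 and 0.554 FPKM with LPS + Dex. The 3 groups did not overlap. The rise with LPS was 3.15 ± 0.32 and the fall on adding Dex was -5.50 ± 0.32 (log2, SE; adjusted p = 2e-09 and 6.31e-14). Mean FPKM was 153 times higher with LPS than with LPS + Dex. AMPKα1-/- cells followed the same order, with 7.78, 18.6 and 9.97 FPKM for vehicle, 58.0, 64.2 and 88.0 FPKM for LPS, and 0.121, 0.468 and 0.0405 FPKM for LPS + Dex. There the lowest value rests on about 2 fragments, and the fall was -5.87 ± 0.28 (adjusted p = 1.2e-15).

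LPS + Dex left Mmp13 below vehicle as well, by -2.36 ± 0.28 in WT and -3.37 ± 0.28 in AMPKα1-/-. Dex without LPS lowered it to 1.22, 1.63 and 1.11 FPKM in WT, a change of -1.63 ± 0.28 (adjusted p = 6.7e-05). The effect of Dex with LPS exceeded its effect without LPS by -3.87 ± 0.42 in WT and -4.28 ± 0.40 in AMPKα1-/- (adjusted p = 7.24e-08 and 3.64e-09). By this test 4 of the 8 members were called in each genotype, Mmp13, Mmp19, Timp1 and Timp2, where 32% of all genes were called in WT and 28.4% in AMPKα1-/-. Of the genes called in WT 46.5% were higher, and 56.7% after centring.

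Mmp8, the collagenase best known from neutrophil granules, went down with LPS and up with Dex. WT vehicle libraries held 9.31, 4.73 and 14.7 FPKM, LPS libraries 1.15 and 0.667 FPKM, and Dex libraries 30.8, 17.6 and 23.3 FPKM, with no overlap. It fell by 2.37 with LPS (SE 0.39, adjusted p = 7.85e-06) and rose by 1.32 ± 0.35 with Dex (adjusted p = 0.00496). The Dex call was lost without WT vehicle replicate 2, the lowest of its group, with 0.93 and an adjusted p of 0.0639. Dex on top of LPS made no detectable difference, at 0.33 with a 95% interval of -0.47 to 1.14. Dex on top of DAMPs raised Mmp8 by 1.54 ± 0.35 in WT and 1.87 ± 0.35 in AMPKα1-/- (adjusted p = 0.00125 and 0.00015).

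Mmp9, a gelatinase that cuts denatured collagen and basement membrane collagen, was lower with Dex in both genotypes. In WT cells it was at 53.5, 21.3 and 47.4 FPKM with vehicle and at 50.2 and 44.4 FPKM with LPS, so these groups overlapped (0.31, 95% interval -1.02 to 1.64). Dex brought it to 7.70, 6.04 and 12.2 FPKM, below every vehicle library, a fall of -2.06 ± 0.57 (adjusted p = 0.00754). In AMPKα1-/- cells the vehicle libraries held 5.99, 31.5 and 20.9 FPKM, with replicate 1 far below the others. The LPS values there were 18.1, 58.1 and 65.2 FPKM, overlapping with vehicle, an increase of 1.30 ± 0.57 (adjusted p = 0.049). That call was lost without any of vehicle replicates 1 and 3 and LPS replicates 2 and 3, with 0.66 to 1.48 and adjusted p of 0.0513 to 0.342.

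Adding Dex to LPS changed Mmp9 by -0.69 in WT, with a 95% interval of -2.02 to 0.64, not called (adjusted p = 0.45). In AMPKα1-/- cells the change was -1.41 ± 0.57, with an adjusted p of 0.0544, and with replicate number as a block the adjusted p was 0.00138. Without LPS replicate 1 the change was -1.98, without LPS + Dex replicate 2 it was -1.71 and without LPS + Dex replicate 3 it was -1.78, each then called, with adjusted p of 0.012, 0.0416 and 0.0296. The fall with Dex alone in these cells, -1.70 ± 0.57, had an adjusted p of 0.0274, and it was lost without any of vehicle replicates 2 and 3 and Dex replicates 1 and 3 (-1.23 to -1.56, adjusted p 0.0823 to 0.173). With DAMPs + Dex against DAMPs, the WT change of -1.56 ± 0.57 had an adjusted p of 0.047 and lost its call without any one of the 6 libraries. In AMPKα1-/- the change was -1.50 ± 0.57 with an adjusted p of 0.0563, called without DAMPs replicate 1 (-2.02, adjusted p = 0.018). It was also called after centring (-1.55, adjusted p = 0.0468), after quantile normalization (-1.58, adjusted p = 0.0395) and when only the 2 groups were fitted (adjusted p = 0.0272).

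Mmp12, the macrophage elastase, was the most abundant of the 6 MMPs in vehicle libraries and the tested member furthest below vehicle with LPS + Dex. WT vehicle libraries held 1058, 244 and 885 FPKM, of which replicate 2 was far below the others. LPS libraries held 98.0 and 92.3 FPKM and LPS + Dex libraries 4.89, 1.66 and 6.02 FPKM. The 3 groups did not overlap. The change was -2.67 ± 0.51 with LPS (adjusted p = 6.11e-05), -4.33 ± 0.51 on adding Dex to LPS (adjusted p = 9.46e-08) and -7.00 ± 0.46 for LPS + Dex against vehicle (adjusted p = 3.47e-13), a mean FPKM 174 times lower. Dex alone lowered it to 80.0, 43.5 and 65.9 FPKM in WT, by -3.30 ± 0.46 (adjusted p = 2.74e-06). AMPKα1-/- cells showed -6.89 ± 0.46 for LPS + Dex against vehicle, from 355, 552 and 876 FPKM to 3.79, 4.16 and 3.22 FPKM. DAMPs gave -1.01 ± 0.46 in WT and -1.27 ± 0.46 in AMPKα1-/-, neither called. Without WT vehicle replicate 2 the WT value was -1.67 with an adjusted p of 0.0465. The AMPKα1-/- DAMPs libraries, at 220, 272 and 204 FPKM, lay below all 3 vehicle libraries, and this change was called when only that genotype was fitted (adjusted p = 0.0163) and with replicate number as a block (adjusted p = 0.00995), although the numbers did not pair these samples.

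Mmp14, the membrane-anchored MMP that cuts collagen at the cell surface and activates pro-MMP2, had the largest rise with LPS of the tested members. WT libraries held 57.5, 27.0 and 51.6 FPKM with vehicle and 935 and 942 FPKM with LPS, a rise of 4.41 ± 0.29 (adjusted p = 2.63e-13) and a 20.7-fold higher mean. AMPKα1-/- libraries rose from 52.5, 40.3 and 43.9 FPKM to 891, 1106 and 1072 FPKM (4.46 ± 0.26). With LPS + Dex it remained at 582, 510 and 540 FPKM in WT, below both LPS libraries and above every vehicle library. That difference from LPS, -0.79 ± 0.29 with an adjusted p of 0.0326, lost its call without LPS replicate 2 or 3 or LPS + Dex replicate 2 or 3 (-0.74 to -0.79, adjusted p 0.0597 to 0.13). In AMPKα1-/- it was -0.91 ± 0.26 (adjusted p = 0.00543). Against vehicle, LPS + Dex stood higher by 3.62 ± 0.26 in WT and 3.55 ± 0.26 in AMPKα1-/-.

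DAMPs raised Mmp14 to 123, 97.6 and 157 FPKM in WT and to 172, 168 and 188 FPKM in AMPKα1-/-, above every vehicle library of the same genotype. The rises were 1.50 ± 0.26 and 1.93 ± 0.26 (adjusted p = 0.00229 and 7.05e-05). The WT call was lost when only the 2 groups were fitted (adjusted p = 0.183). Dex on top of DAMPs took Mmp14 back to 40.6, 24.6 and 46.3 FPKM in WT, by -1.75 ± 0.26 (adjusted p = 5.27e-06). In AMPKα1-/- that change was -2.04 ± 0.26 (adjusted p = 4.94e-07). In this comparison of DAMPs + Dex with DAMPs, 7 of the 8 members were called in WT and 5 in AMPKα1-/-, where 24.3% and 25.3% of all genes were called.

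Mmp19, a secreted MMP of macrophages and other tissues that cuts basement membrane proteins, fell with LPS and rose with Dex. In WT cells it was at 12.7, 9.82 and 13.9 FPKM with vehicle, 7.15 and 7.39 FPKM with LPS, and 35.2, 32.1 and 18.3 FPKM with LPS + Dex, with no overlap. It fell by 0.66 with LPS (SE 0.21, adjusted p = 0.0106), a call lost without LPS replicate 2 (-0.64, adjusted p = 0.0612). It rose by 1.79 ± 0.21 when Dex was added (adjusted p = 1.33e-07) and by 2.06 ± 0.19 in AMPKα1-/- (adjusted p = 9.52e-10). Dex alone raised it to 25.0, 26.9 and 23.8 FPKM in WT (1.01 ± 0.19, adjusted p = 0.000211). In AMPKα1-/- the Dex libraries held 14.6, 13.3 and 19.2 FPKM (0.51 ± 0.19, adjusted p = 0.0472), and with replicate number as a block the adjusted p was 0.0544. That call was also lost without any one vehicle library or without Dex replicate 1 or 3 (0.37 to 0.57, adjusted p 0.0575 to 0.213).

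The larger effect of Dex on Mmp19 with LPS than without was 1.55 ± 0.27 in AMPKα1-/- (adjusted p = 6.66e-05). In WT it was 0.78 ± 0.29 (adjusted p = 0.039). The WT call was lost without any one of 8 libraries, namely replicates 1 and 3 of vehicle and of Dex, both LPS libraries, and LPS + Dex replicates 1 and 2 (0.61 to 0.80, adjusted p 0.0619 to 0.114). It was also lost with no filter (adjusted p = 0.0698), and when only the groups compared or only WT libraries were fitted (adjusted p = 0.0977 and 0.0876). Across the 35 libraries, Mmp19 and Mmp13 had a Pearson r of -0.89 on the log2 scale. These points share treatments and libraries, and the value is only a description.

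Timp2, an inhibitor that also takes part in the activation of pro-MMP2 by MMP14, was the most abundant TIMP in vehicle libraries and fell with LPS. WT libraries held 204, 223 and 215 FPKM with vehicle, 6.18 and 7.13 FPKM with LPS, and 23.9, 30.2 and 19.3 FPKM with LPS + Dex. The groups did not overlap. The fall with LPS was -4.81 ± 0.14 (adjusted p = 1.03e-20), a mean 32.1 times lower, and Dex with LPS raised it by 1.71 ± 0.14 (adjusted p = 1.14e-10). LPS + Dex remained below vehicle by -3.10 ± 0.13. In AMPKα1-/- cells the values were 195, 164 and 186 FPKM with vehicle, 5.53, 5.26 and 4.54 FPKM with LPS, and 15.6, 16.1 and 14.0 FPKM with LPS + Dex.

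Dex alone raised Timp2 slightly, by 0.35 ± 0.13 in WT and 0.33 ± 0.13 in AMPKα1-/- (adjusted p = 0.0339 and 0.0477). The WT call was lost without any of the 3 vehicle libraries or Dex replicates 2 and 3 (0.25 to 0.38, adjusted p 0.0558 to 0.163). It was also lost when libraries were centred on one median (0.26, adjusted p = 0.16), with no filter (adjusted p = 0.0574), and when only the groups compared or only WT libraries were fitted (adjusted p = 0.0644 and 0.0927). The AMPKα1-/- call was lost without vehicle replicate 2 or 3 or Dex replicate 1 or 2 (0.26 to 0.35, adjusted p 0.0796 to 0.202). Dex with DAMPs gave 0.35 ± 0.13 in WT (adjusted p = 0.0411), lost without DAMPs replicate 1 or 3 or DAMPs + Dex replicate 2 or 3 (0.28 to 0.36, adjusted p 0.0734 to 0.163). Across the 35 libraries Timp2 and Mmp14 had a Pearson r of -0.91, again a description of points that share treatments.

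Timp1, a secreted inhibitor of most MMPs that inflammatory stimuli induce in many cells, rose with LPS and was not called with Dex or DAMPs given alone. WT libraries held 6.08, 1.32 and 3.33 FPKM with vehicle, 27.1 and 45.6 FPKM with LPS, and 0.827, 0.507 and 3.56 FPKM with LPS + Dex. Both LPS libraries stood above all the others. The rise was 3.13 ± 0.44 (adjusted p = 8.21e-07) and the change on adding Dex was -3.96 ± 0.44 (adjusted p = 3.84e-08). In AMPKα1-/- cells Timp1 went from 0.894, 1.72 and 0.774 FPKM to 3.23, 10.5 and 5.86 FPKM with LPS (1.73 ± 0.40, adjusted p = 0.000412) and to 0.047, 0.317 and 0.505 FPKM with LPS + Dex (-2.45 ± 0.40, adjusted p = 1.22e-05), the lowest of these resting on about 1 fragment. Dex by itself gave 0.10 in WT with a 95% interval of -0.72 to 0.91.

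Against vehicle, LPS + Dex changed Timp1 by -0.83 ± 0.40 in WT (adjusted p = 0.0773), and without vehicle replicate 2 or LPS + Dex replicate 3 the value was -1.25 or -1.32 (adjusted p = 0.0131 and 0.00762). In AMPKα1-/- it was -0.71 ± 0.40 (adjusted p = 0.126), with an adjusted p of 0.027 when replicate number was a block. With a pseudocount of 0.1 in place of 1 it was -1.80 and called (adjusted p = 0.0146). For LPS + Dex against vehicle, 6 of the 8 members were called in each genotype, all but Mmp9 and Timp1, where 54.2% of all genes were called in WT and 57.4% in AMPKα1-/-. The share of called genes that were higher there was 31.7% in WT and 29.0% in AMPKα1-/-, and 50.3% and 50.9% after centring. Mmp14 and Mmp19 were the members that stood above vehicle there.

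Timp3, which binds to the matrix and blocks ADAM proteases as well as MMPs, was below 1 FPKM in every library. Its highest values were the WT LPS libraries, 0.784 and 0.792 FPKM, above all others. AMPKα1-/- LPS libraries held 0.120, 0.312 and 0.0662 FPKM, and Timp3 was listed at 0 in all 3 AMPKα1-/- LPS + Dex libraries.

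Stromal markers are given beside these 2 inhibitors because fibroblasts express both. Of the list of 8 fibroblast and stromal genes, Col1a2 was the most abundant by mean (2.62 FPKM, up to 11.9), and 2, Pdgfra and Thy1, were under 1 FPKM in every library. Lum was at 0 in 25 of the 35 libraries and was the leading gene of the list, in 1 WT LPS library, at 6.43 FPKM, and in 2 AMPKα1-/- LPS libraries, at 3.77 and 5.36 FPKM. Pdgfrb led in WT LPS replicate 2, at 4.53 FPKM, and in AMPKα1-/- LPS replicate 3, at 5.56 FPKM. The summed level was 18.7, 1.66 and 10.2 FPKM in WT vehicle libraries. It was 18.3 and 18.8 FPKM in WT LPS, and 11.6, 3.30 and 10.4 FPKM in WT LPS + Dex. In AMPKα1-/- libraries it was 1.73, 3.16 and 1.71 FPKM with vehicle, 9.75, 14.5 and 13.6 FPKM with LPS, and 5.19, 8.32 and 3.27 FPKM with LPS + Dex. Col1a2 overlapped between vehicle and LPS in each genotype. In WT it was 8.27, 0.832 and 4.49 FPKM with vehicle and 2.38 and 2.88 FPKM with LPS. In AMPKα1-/- it was 0.391, 1.10 and 0.664 FPKM with vehicle and 0.159, 0.569 and 0.286 FPKM with LPS. The part of the stromal markers in the Timp1 and Timp3 results was not tested.

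The balance of the family was summed per library. The 6 MMP transcripts together came to a median of 1018 FPKM (312 to 1198) in WT vehicle and 1152 FPKM (1142 to 1162) in WT LPS, which lay within the vehicle range. In AMPKα1-/- it was higher with LPS, 1311 FPKM (1063 to 1378) against 682 FPKM (450 to 986) with vehicle, with no overlap. The make-up differed too. In WT cells Mmp12 was 86.9% of the sum with vehicle (median, 78.1% to 88.3%) and 8.26% with LPS, and Mmp14 was 5.07% with vehicle and 81.5% with LPS. With LPS + Dex the WT sum was 599 FPKM (562 to 668) and Mmp14 made up 90.2% of it. Dex alone brought the WT sum to 152 FPKM (107 to 163), below every vehicle library.

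The 3 TIMP transcripts summed to a median of 219 FPKM (210 to 224) in WT vehicle, 43.8 FPKM (34.1 to 53.5) in WT LPS and 24.8 FPKM (23.0 to 30.7) in WT LPS + Dex. Timp1 was 1.52% of that sum with vehicle, 82.4% with LPS and 3.34% with LPS + Dex, so in WT the leading inhibitor was Timp1 with LPS and Timp2 with vehicle and LPS + Dex. In AMPKα1-/- LPS libraries Timp1 was 56.0% of the sum (36.4% to 65.4%). In AMPKα1-/- cells the TIMP sum under LPS was lower, 10.5 FPKM (8.88 to 16.1), with no overlap with the 2 WT libraries. Mean Timp1 under LPS was 6.55 FPKM in AMPKα1-/- and 36.4 in WT, and mean Timp2 was 5.11 and 6.66 FPKM. The Timp1 genotype call under LPS was lost under 4 alternatives. Neither the sums nor their ratio were tested between genotypes. The ratio of the MMP sum to the TIMP sum was 4.66 (1.39 to 5.71) in WT vehicle, 0.476 (0.376 to 0.700) with Dex, 27.7 (21.3 to 34.1) with LPS and 26.1 (18.3 to 27.0) with LPS + Dex. In AMPKα1-/- it was 4.10 (2.29 to 5.28) with vehicle, 120 (81.3 to 132) with LPS and 37.1 (36.3 to 42.5) with LPS + Dex. These are sums of transcripts and say nothing of enzyme activity.

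**Figure D3:**
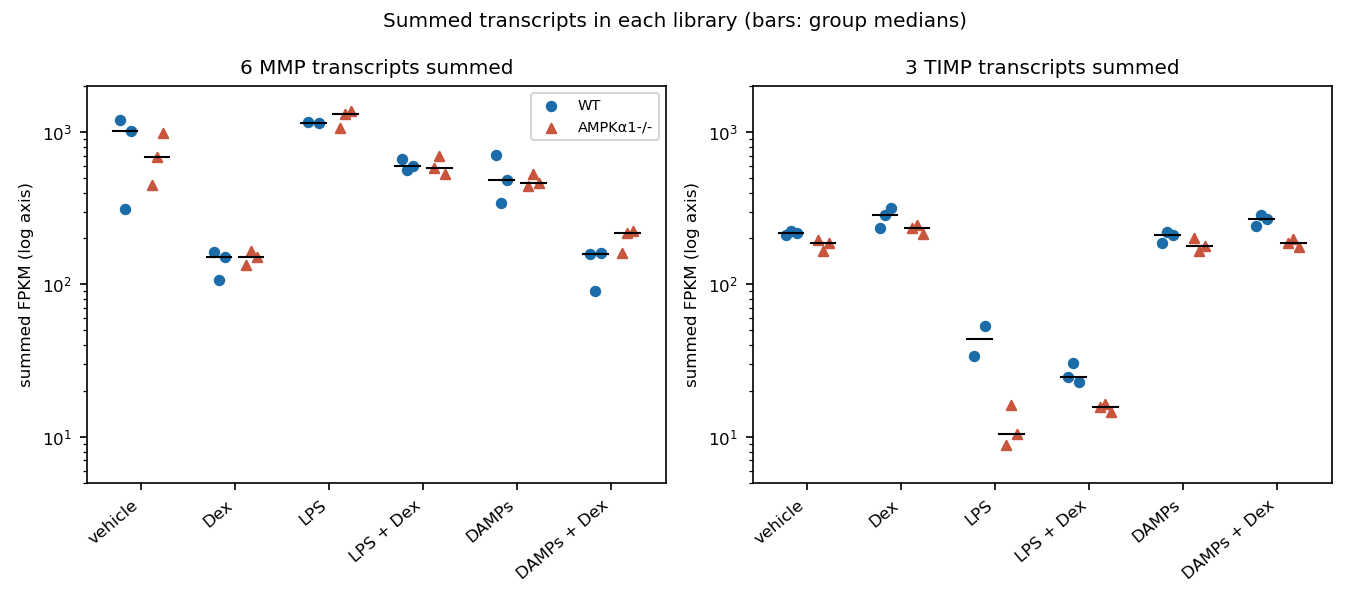
Summed FPKM of the 6 MMP genes (left) and the 3 TIMP genes (right) in every library, on log axes, by treatment, with WT as circles, AMPKα1-/- as triangles and bars at group medians. From vehicle to LPS the MMP sum goes from 1018 to 1152 FPKM in WT, where the ranges overlap, and from 682 to 1311 FPKM in AMPKα1-/-, where they do not, while the TIMP sum drops from 219 to 43.8 FPKM in WT and from 187 to 10.5 FPKM in AMPKα1-/-.

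Genotype was compared within each treatment. Mmp8 was the member that differed most often. Every AMPKα1-/- library stood above every WT library in all 6 treatments, for instance 19.7, 29.2 and 23.5 FPKM against 9.31, 4.73 and 14.7 FPKM with vehicle, and 6.34, 6.54 and 3.53 FPKM against 1.15 and 0.667 FPKM with LPS. The difference lay between 1.19 and 1.87 (log2) over the 6 treatments, and 4 of them were called, Dex (1.43 ± 0.35, adjusted p = 0.00867), LPS (1.73 ± 0.39, adjusted p = 0.0257), LPS + Dex (1.87 ± 0.35, adjusted p = 0.00478) and DAMPs + Dex (1.52 ± 0.35, adjusted p = 0.0236). With vehicle it was 1.35 ± 0.35 (adjusted p = 0.0892) and with DAMPs 1.19 ± 0.35 (adjusted p = 0.134). The 6 treatments are not independent if the cultures share animals.

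Leaving out libraries changed several of these Mmp8 calls. The LPS call was lost without either WT library or without AMPKα1-/- replicate 1 or 2 (1.55 to 1.92, adjusted p 0.0681 to 0.425). The Dex call was lost without WT or AMPKα1-/- replicate 2 (1.24 and 1.35, adjusted p = 0.0731 and 0.0613). The DAMPs + Dex call was lost without WT replicate 2 or AMPKα1-/- replicate 2 or 3 (1.28 to 1.36, adjusted p 0.104 to 0.196), and the vehicle difference was called without WT replicate 3 (1.69, adjusted p = 0.0351). The LPS + Dex call remained without any one library and was lost when only the 2 groups were fitted (adjusted p = 0.149).

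Neutrophil markers are given beside Mmp8 and Mmp9, which neutrophils also express. Of the 12 genes in that list, 6 (Ly6g, Elane, Mpo, Prtn3, Cxcr2, Retnlg) were under 1 FPKM in every library, with Ly6g at 0 in 31 and Mpo in 22 of the 35 libraries. By mean the most abundant gene was S100a8 (106 FPKM), which led the sum only with LPS + Dex, and in vehicle libraries the sum was mostly Csf3r, at 47.8 to 76.0 FPKM. Macrophages also express both. The sum was 109, 55.2 and 75.9 FPKM in WT vehicle and 98.6, 72.1 and 74.1 FPKM in AMPKα1-/- vehicle libraries, so the genotypes overlapped. With LPS the sum was 289 and 232 FPKM in WT and 237, 233 and 244 FPKM in AMPKα1-/-, above every vehicle library. Camp led the list in WT LPS replicates 2 and 3 (133 and 113 FPKM) and in AMPKα1-/- LPS replicate 3 (117 FPKM). With LPS + Dex the sum was 688, 544 and 1224 FPKM in WT and 376, 360 and 643 FPKM in AMPKα1-/-, again overlapping. With Dex it was 35.3, 30.6 and 34.1 FPKM in WT and 74.3, 49.9 and 49.4 FPKM in AMPKα1-/-, higher in AMPKα1-/- with no overlap. Without Csf3r the sum of the other 11 genes with vehicle was 32.6, 1.85 and 7.49 FPKM in WT and 41.4, 24.2 and 8.64 FPKM in AMPKα1-/-. With Dex it was 6.39, 2.24 and 7.11 FPKM in WT and 47.9, 32.0 and 23.5 FPKM in AMPKα1-/-, and with DAMPs 5.67, 2.36 and 7.23 FPKM and 43.5, 15.0 and 20.7 FPKM. The AMPKα1-/- libraries thus stood above all WT libraries with Dex and DAMPs, and the genotypes overlapped with vehicle and in the remaining 3 treatments. Of the 6 tested genes of the list, 5 were called higher in AMPKα1-/- with Dex (median 1.50 on the log2 scale, against -0.09 over all genes). Over all genes 11% were called higher there and 26.5% in either direction. The number of genes called fell from 3008 to 304 without WT Dex replicate 2. In the other 5 treatments no gene of the list was called, with list medians of 0.78 with vehicle and 1.51 with DAMPs. The part of these markers in the Mmp8 difference, or in the changes of Mmp8 and Mmp9 with LPS, was not tested. The remaining marker lists were low. Of the dendritic cell list Cd209a was at 0 in all 35 libraries, and Ccr7, its most abundant gene and one that maturing myeloid cells induce, reached 110 FPKM, with its highest values under LPS. Cd79a led the lymphocyte list at up to 0.821 FPKM, and Cpa3 led the mast cell and basophil list at up to 0.878 FPKM.

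Other genotype differences were fewer. With vehicle no member was called, where 0.432% of all genes were. With Dex 3 members were called, Mmp8, Mmp13 (0.83 ± 0.28, adjusted p = 0.0348) and Mmp19 (-0.66 ± 0.19, adjusted p = 0.0179), where 26.5% of all genes were called. Of those 41.4% were higher in AMPKα1-/-, and 59.1% after centring. Mmp13 under Dex was 2.53, 4.57 and 2.50 FPKM in AMPKα1-/- and 1.22, 1.63 and 1.11 FPKM in WT, with no overlap, and its call was lost without any WT library or AMPKα1-/- replicate 2 (0.61 to 0.92, adjusted p 0.0767 to 0.215). The Mmp19 call was lost without WT or AMPKα1-/- replicate 2 (-0.62 and -0.56, adjusted p = 0.0967 and 0.122). The number of genes called in that comparison fell from 3008 to 304 without WT Dex replicate 2.

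With LPS 2 members were called, Mmp8 and Timp1, where 0.766% of all genes were called, 54.0% of them higher in AMPKα1-/- and 69.9% after centring. Timp1 was lower in AMPKα1-/- by -2.38 ± 0.44 (adjusted p = 0.00656), with no overlap between 3.23, 10.5 and 5.86 FPKM and 27.1 and 45.6 FPKM. The call was lost without WT replicate 3 or AMPKα1-/- replicate 1 (both -2.02, adjusted p = 0.304 and 0.0621), with a pseudocount of 0.1 (-2.57, adjusted p = 0.0783) and when only the 2 groups were fitted (adjusted p = 0.346). The stromal marker sum in these libraries was 9.75, 14.5 and 13.6 FPKM in AMPKα1-/- and 18.3 and 18.8 FPKM in WT. Its part in the Timp1 difference was not tested. With LPS + Dex 2 members were called, Mmp8 and Timp2, where 0.669% of all genes were called, 50% of them higher in AMPKα1-/- and 60.8% after centring. Timp2 was lower in AMPKα1-/- by -0.63 ± 0.13 (adjusted p = 0.00961), a call lost without WT replicate 2 or AMPKα1-/- replicate 3 (-0.47 and -0.58, adjusted p = 0.0896 and 0.0659), after centring (-0.58, adjusted p = 0.0528) and when only the 2 groups were fitted (adjusted p = 0.645).

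With DAMPs no member was called, where 0.731% of all genes were, and with DAMPs + Dex Mmp8 was called, where 1.06% of all genes were. Mmp14 and Mmp12 were called in none of the 6 genotype comparisons. For Mmp14 under LPS the 95% interval was -0.47 to 0.71, and for Mmp12 under LPS + Dex it was -0.97 to 0.92.

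**Figure D4:**
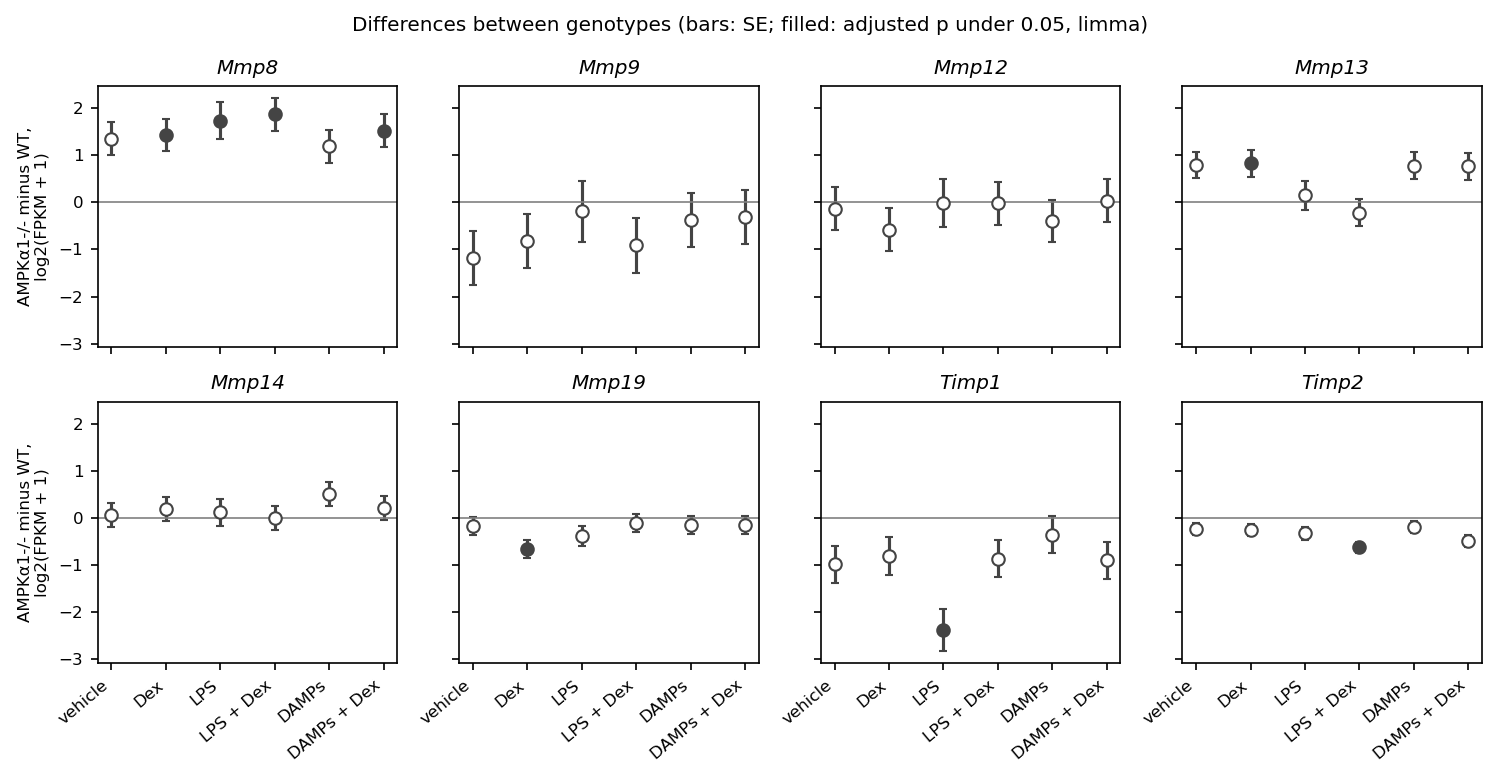
Difference in log2(FPKM + 1) of AMPKα1-/- minus WT within each treatment for the 8 tested genes, with SE as bars and filled circles where the adjusted p was under 0.05. Mmp8 lies between 1.19 and 1.87 in all 6 treatments, Timp1 is lowest under LPS at -2.38, and Mmp12 and Mmp14 have no filled circle.

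Whether a treatment effect itself differed between genotypes was tested by interaction. No gene was called for the effects of LPS (0%), Dex on LPS (0%), Dex (0%), DAMPs (0%) or Dex on DAMPs (0%) by limma, and 514, 311, 2441, 66 and 234 of the 11354 genes had an unadjusted p under 0.05. Without the filter on low levels 118, 75, 21, 2 and 9 genes were called. For Timp1 the LPS effect was smaller in AMPKα1-/- by -1.40 ± 0.59 (95% interval -2.62 to -0.17, adjusted p = 0.947), and the effect of Dex on LPS differed by 1.52 ± 0.59 (95% interval 0.29 to 2.75, adjusted p = 1.0). The effects on Mmp8 differed by 0.39 ± 0.52 for LPS and 0.08 ± 0.49 for Dex. For Timp2 the LPS effect differed by -0.09 with a 95% interval of -0.48 to 0.30.

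Of 18 further MMP and TIMP genes measured, only Mmp27 reached the mean level for testing. Its neighbours in the chromosome 9 cluster, among them the stromelysins Mmp3 and Mmp10, had means of 0.286 and 0.0567 FPKM, and the gelatinase Mmp2 had 0.599 FPKM. Some of these genes passed 1 FPKM under LPS. In WT cells Mmp3 stood at a mean of 0.03 FPKM with vehicle, 2.27 with LPS and 0.38 with LPS + Dex, and Mmp25, which encodes a membrane-anchored MMP, at 0.05, 1.57 and 0.05 FPKM. In AMPKα1-/- LPS libraries their means were 1.19 and 1.00 FPKM. Mmp27, which lies next to Mmp8, went from 6.80 ± 1.27 FPKM in WT vehicle (SD, n = 3) to 0.34 ± 0.28 with LPS (SD, n = 2) and 15.2 ± 0.737 with Dex (SD, n = 3). Its changes were -2.54 ± 0.25 and 1.06 ± 0.23 (adjusted p = 1.77e-09 and 0.000701).

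Regulators of MMPs and of plasmin, the protease that activates several of them, were measured as a list of 16 genes, 11 of them tested. For this and the next 4 lists, the background with LPS was 19.9% of all genes higher and 35.8% lower in WT (median -0.19), and 20.2% and 44.1% in AMPKα1-/- (median -0.30). For Dex on LPS it was 16.6% higher and 17.5% lower in WT (median -0.03), and 19.3% and 18.4% in AMPKα1-/- (median 0.01). With LPS in WT 6 rose and 2 fell (list median 0.49), and with LPS + Dex against LPS 2 rose and 5 fell (median -0.56). In AMPKα1-/- the counts were 7 and 3, then 3 and 5. Lcn2, whose product binds MMP9, stood at 6.63 FPKM in WT vehicle, 1339 with LPS and 18711 with LPS + Dex (means), rising by 7.66 ± 0.46 and by a further 3.81 ± 0.46. Serpinb2, an inhibitor of plasminogen activators, rose by 6.78 ± 0.50 with LPS and fell by 6.70 when Dex was added (SE 0.50). Its 2 WT LPS libraries lay far apart, at 70.2 and 510 FPKM.

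Of 20 ADAM and ADAMTS genes, metalloproteinases that shed membrane proteins or cut proteoglycans, 8 were tested. In WT, LPS raised 1 and lowered 2 (median -0.39; 2 and 2 after centring), and Dex on LPS raised 3 and lowered 2 (median 0.56). In AMPKα1-/- the counts were 1 and 4 with LPS (median -0.43; 2 and 3 after centring) and 3 and 2 for Dex on LPS (median 0.29). Dex alone raised 4 and lowered none in WT, and raised none and lowered 1 in AMPKα1-/-, where 15.9% and 14.9% of all genes rose and fell in WT and 11.9% and 16% in AMPKα1-/-. Over all genes, centring moved the share of called genes that rose with Dex from 51.6% to 45.0% in WT. In AMPKα1-/- it moved from 42.8% to 51.9%. No gene was called for a difference between genotypes in the effect of Dex. The aggrecan-cutting Adamts4 rose by 3.63 ± 0.31 with LPS and fell by 1.21 when Dex was added (SE 0.31). Adam8 fell by 2.21 with LPS (SE 0.19), from a mean of 435 to 92.8 FPKM, and rose by 0.60 ± 0.19 when Dex was added to LPS. Adam19 gave 0.53 ± 0.38 with LPS, not called, and -2.47 ± 0.38 on adding Dex to LPS, while Dex alone raised it by 1.50 ± 0.34.

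Cathepsins, cystatins and serine elastases, the other main matrix-degrading proteases of myeloid cells and their inhibitors, numbered 16, with 13 tested. With LPS in WT none rose and 8 fell (median -1.40), with the same counts after centring or quantile normalization, and in AMPKα1-/- 1 rose and 8 fell. Ctsb fell by 2.44 (SE 0.13), from 3166 ± 187 FPKM (SD, n = 3) to 584 ± 49.4 (SD, n = 2). Ctse fell by 3.01 (SE 0.36), and Ctsk, which cuts collagen in bone, fell by 2.31 (SE 0.27). Adding Dex to LPS raised 3 and lowered 4 of the list in WT, and raised 3 and lowered 5 in AMPKα1-/-. In WT Ctsb gave 0.08 ± 0.13.

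Of 20 matrix components 12 were tested. With LPS in WT 4 rose and 2 fell (median -0.42), and with Dex on LPS 1 rose and 1 fell in each genotype. In AMPKα1-/- LPS raised 4 and lowered 3, with a median of -0.29 that became 0.14 under quantile normalization. Versican (Vcan) rose by 3.94 ± 0.50 with LPS, Col4a2 by 2.56 ± 0.25, and fibronectin (Fn1) gave -1.48 ± 0.64 with LPS, not called, and rose by 1.88 ± 0.64 when Dex was added. Col4a2 fell by 1.45 when Dex was added to LPS (SE 0.25), and Dex alone raised it by 0.74 ± 0.22, from a mean of 0.47 to 1.39 FPKM. This list holds Col1a1, Col1a2, Col3a1, Dcn and Lum, which are also stromal markers.

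Transcription factors and regulators known to act on MMP promoters numbered 20, with 18 tested. LPS raised 9 and lowered 7 in WT (median 0.79) and raised 9 and lowered 8 in AMPKα1-/-. Dex on LPS raised 3 and lowered 9 in WT (median -0.52) and raised 4 and lowered 10 in AMPKα1-/-. The AP-1 family member Batf rose by 4.16 ± 0.19 with LPS and fell by 0.55 when Dex was added to LPS (SE 0.19). The NF-κB inhibitor gene Nfkbia rose by 3.65 ± 0.13 with LPS and fell by 0.73 when Dex was added to LPS (SE 0.13). Without LPS it went the other way, with a rise of 0.68 ± 0.11 for Dex alone (46.0 to 74.7 FPKM, means) and of 1.11 ± 0.11 for Dex on DAMPs (48.3 to 104.9 FPKM).

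Genes whose level over the 35 libraries was most like each member's were named by Pearson r, as a description, since the points share treatments and libraries. For Mmp12 these were Atf3 (0.967), Rgs1 (0.961) and Plk2 (0.956), and for Mmp13 Tbc1d9 (0.945), Ch25h (0.940) and Msr1 (0.939). Mmp14 was most like Vasp (0.980), Mag (0.972) and Emc2 (0.972), and Timp2 was most like Cyp27a1 (0.988), Tbc1d22a (0.985) and Slc46a3 (0.985). Mmp8 was nearest to Slc22a18 (0.925), Emb (0.923) and Cd1d1 (0.908), and Mmp19 to Net1 (0.943), Fbh1 (0.931) and Lmln (0.923). The closest values were lower for Mmp9, with Itgax (0.847), Lipo3 (0.810) and Axl (0.807), and for Timp1, with Zswim7 (0.820), Spata5l1 (0.819) and Il18 (0.813).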

How the data were processed

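RNA-seq of BMDMs was read from the FPKM values that the authors deposited, 1 table per library. Per the labels, TRIzol RNA was sequenced by Novogene, and the submitters' processing notes name Bowtie2 2.2.3, TopHat2 2.0.12, HTSeq 0.6.1 and DESeq2 with GRCm38/mm10, with no role for each. Raw counts were not used here. The smallest steps of the FPKM tables put the depth at about 15837203 to 31955298 fragments per library, so that 1 fragment on 1 kb was worth 0.0313 to 0.0631 FPKM. Under that estimate 55.1 to 63.4% of the genes with at most 10 fragments came out whole (within 0.001), too few to run a count test. FPKM is relative to each library's total, and Saa3 alone held up to 24.0% of the FPKM sum. Replicates of a group had Pearson r of 0.967 to 0.993.

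Of 47069 identifiers 46488 had a symbol, and each member matched 1 identifier. log2(FPKM + 1) of the 11354 genes with a mean of at least 1 FPKM was fitted with limma 3.58.1 (R 4.3.3), with the 12 groups in 1 model, a trended prior, 2-sided tests and Benjamini-Hochberg adjustment within each of 25 comparisons at 0.05. Nothing in the labels ties libraries to animals. The study's methods count cultures from individual mice, and otherwise p-values measure only the spread between these samples. Same-numbered libraries deviated together (every r above 0.1 over 3 pairs) in AMPKα1-/- for LPS against vehicle (0.124 to 0.316), LPS + Dex against LPS (0.356 to 0.375), LPS + Dex against vehicle (0.246 to 0.365) and Dex against vehicle (0.217 to 0.400), and between genotypes for LPS + Dex (0.119 to 0.515). There the blocked value is given where it changes a call.

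Members, lists and tests were chosen with earlier results of these data known. Named genes were the members, Prkaa1, the treatment checks, in each list up to 3 called genes with the largest WT change for LPS or for Dex on LPS, the 3 genes most like each member, and the most abundant marker of each marker list. Some genes that this rule takes in are not reported here. Other marker genes were named after their values were seen. Promoter windows came from RefSeq (GRCm38.p6). Protein motifs were planned and not analysed here.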

Additional observations from a re-analysis of the deposited data

How the results depend on the processing

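Over 3370 changes of single genes under the alternatives, no called change reversed, 111 lost their call, 23 gained one and 3236 stayed on the same side of the threshold. The counts of called members that moved by over 1.5 times are these. With a pseudocount of 0.1 the genotype comparisons held 1 member with LPS (2 in the report) and 0 with DAMPs + Dex. With no filter on mean FPKM, Dex against vehicle in AMPKα1-/- held 4 (7 in the report), the DAMPs + Dex genotype comparison 0, and the genotype interactions for LPS and for Dex on LPS 1 each, which was Timp3 (-0.59 and 0.55, adjusted p = 0.0117 and 0.0256), a gene below 1 FPKM. With a mean of at least 5 FPKM the LPS genotype comparison held 1, since Timp1, with a mean of 4.16 FPKM, was then not tested. In the linear model without moderation that comparison also held 1, as Mmp8 lost its call (adjusted p = 0.0525). Libraries centred on one median gave 1 for LPS + Dex between genotypes, and quantile normalization gave 1 with vehicle and 2 with DAMPs + Dex. Fitting only the groups compared gave 0 for DAMPs against vehicle in WT and 0 for the LPS, LPS + Dex and DAMPs + Dex genotype comparisons. Fitting one genotype gave 2 for DAMPs against vehicle in AMPKα1-/- (Mmp12 added, adjusted p = 0.0163). Beside the losses given in the report, further single calls were lost with an adjusted p of 0.0509 to 0.112. Among them were, with a pseudocount of 0.1, Mmp9 for LPS in AMPKα1-/- and for Dex on DAMPs in WT, Timp2 for Dex in AMPKα1-/-, and Mmp13 between genotypes with Dex. With no filter they included Mmp14 for Dex on LPS in WT, Mmp9 for the same 2 comparisons, Timp2 for Dex on DAMPs in WT and Mmp13 between genotypes with Dex. Mmp14 for Dex on LPS in WT was also lost under quantile normalization and in the fit of one genotype. Mmp9 for LPS in AMPKα1-/-, Mmp9 for Dex in AMPKα1-/- and Timp2 for Dex on DAMPs in WT were lost both with only the groups compared and with one genotype, and that Timp2 call also after centring. Without the trended prior Mmp9 for LPS and Timp2 for Dex in AMPKα1-/- were lost, and without moderation Mmp9 for LPS in AMPKα1-/- and for Dex on DAMPs in WT and Mmp19 for Dex in AMPKα1-/-. Quantile normalization also called Timp2 between genotypes with Dex (-0.37, adjusted p = 0.0193). Apart from the removal of Timp1 by the filter, the cause of these shifts was not tested.

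With each library left out in turn, the members called ranged from 1 to 2 for DAMPs against vehicle in WT, from 4 to 6 for Dex against vehicle in AMPKα1-/-, and between genotypes from 0 to 1 with vehicle, 0 to 3 with Dex, 0 to 2 with LPS, 1 to 2 with LPS + Dex and 0 to 1 with DAMPs + Dex. Without 1 of the 2 WT LPS libraries, the lone one was assumed to vary like the other groups. Over all genes the number called was 228 for DAMPs against vehicle in WT (1 to 372 over the alternatives), 469 in AMPKα1-/- (267 to 570) and 3871 for Dex on LPS in WT (2065 to 4932). Between genotypes it was 49 with vehicle (19 to 92), 3008 with Dex (304 to 3341), 87 with LPS (3 to 450), 76 with LPS + Dex (7 to 146), 83 with DAMPs (11 to 119) and 120 with DAMPs + Dex (35 to 155).

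With the replicate number as a block, DAMPs against vehicle in AMPKα1-/- held 2 members (Mmp12 added, adjusted p = 0.00995). Where the numbers did not pair the samples (DAMPs and most WT comparisons), the block also gave calls for Timp1 in LPS + Dex against vehicle in WT and for Mmp9 in DAMPs + Dex against DAMPs in AMPKα1-/- (adjusted p = 0.0114 and 0.00129). For the effect of Dex with LPS minus without in WT it called Mmp8 and Mmp12 (adjusted p = 0.0378 and 0.0248) and lost Mmp19 (0.0577). Apart from these and the blocked values given in the report, the block changed no call of a member. Depth limits values near 1 fragment, such as Mmp13, Timp1 and Timp3 under LPS + Dex.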
